A study of Mus musculus with 8 samples.

Results

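Cytochrome b5, the reductases that feed it and cytochrome P450 reductase were examined in fasted liver as a set of 7 genes, Cyb5r1, Cyb5r2, Cyb5r3, Cyb5r4, Cyb5a, Cyb5b and Por, of the 35275 genes in the count table. The set was chosen by listing symbols after the genotype difference of Cyb5r1 was known, because Cyb5r1 is among the transcripts that stood out between the genotypes. The genotype contrast of these 7 genes is therefore given as a description with no test. Liver RNA was sequenced from 4 Pcx L-/- mice and 4 controls, with 1 library per mouse. All 8 mice were C57BL/6 males, 9 weeks old and fasted for 24 h. Pcx L-/- mice carry a floxed exon of Pcx, which encodes the mitochondrial enzyme pyruvate carboxylase, together with Albumin-Cre, so the deletion is driven in hepatocytes, while other liver cells keep the gene. The controls are Pcx f/f littermates, named WT in the sample labels, and carry the floxed alleles without the deletion. Whole liver was used, so a lower level of a transcript can come from fewer cells of a type or from less RNA per cell, and these cannot be told apart.

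Cytochrome b5 is a small heme protein that passes single electrons to membrane enzymes. It is reduced by NADH through the cytochrome b5 reductases, or by NADPH through Por, the diflavin enzyme that also reduces the microsomal cytochrome P450s. In the liver these electrons serve fatty acid desaturation, sterol and sphingolipid synthesis, and the oxidation of drugs and steroids. Cyb5a encodes the cytochrome b5 of the endoplasmic reticulum and Cyb5b that of the outer mitochondrial membrane. Cyb5r3 encodes the reductase best known for both membranes, and for reducing methemoglobin in red blood cells. Cyb5r4 encodes a fusion of a cytochrome b5 domain with a reductase domain, and Cyb5r1 encodes a membrane-bound paralog that has been linked, with Por, to peroxidation of membrane phospholipids.

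Reads on genes came to between 12016242 and 20023108 per library, the lowest in control replicate 4. Pcx, the deleted gene, had between 556 and 758 normalized counts in the Pcx L-/- libraries and between 14371 and 22059 in the control libraries, a log2 fold change of -4.80, so each label fitted its library. Normalized counts are reads corrected by edgeR's TMM factors and brought to a common library size. These factors were between 0.833 and 0.942 in control liver and between 1.14 and 1.17 in Pcx L-/- replicates 2 to 4, while Pcx L-/- replicate 1, at 0.970, stood apart from its group. Its mouse number is in the 500s, as are those of control replicates 1 and 2, whereas the other 5 mice have numbers in the 800s, and the labels do not say what the series means. Values without this mouse are given beside the results of the members. Without TMM, scaling by library size moved the median log2 fold change of the 13168 genes tested from -0.01 to 0.28, so each change below should be read relative to that shift. Summed over 8 hepatocyte markers, normalized CPM (read counts relative to library size) were between 96356 and 122878 in control and between 56161 and 84108 in Pcx L-/- liver. Of the 8, 4 were lower and none higher by edgeR, against 13.5% lower and 14.1% higher among all genes tested. These sums are on the TMM scale. Alb, the albumin gene and the most abundant of the 8, was not among those called (log2 fold change -0.63, adjusted p = 0.0532, edgeR).

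Of the 7 genes, 6 passed the filter on low counts and Cyb5r2 did not. At an adjusted p under 0.05 in edgeR's quasi-likelihood test, 3 of the 6 were past the threshold, Cyb5r1 in the direction of higher levels and Cyb5r3 and Cyb5b in that of lower levels, against 27.6% of all genes tested (14.1% higher and 13.5% lower). The values of the genotypes did not overlap for the same 3 genes, against 27.6% of all genes. Nothing is read from these counts, since the contrast chose the set. Cyb5r1 and Cyb5r3 also differed without overlap after scaling by library size, whereas the log2 fold change of Cyb5b moved from -0.42 to -0.13, that of Cyb5r4 from 0.10 to 0.38 and that of Cyb5a from 0.25 to 0.50.

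Cyb5r1 (ENSMUSG00000026456, chromosome 1 from 134405559 to 134411740 of GRCm38, plus strand) was the member with the largest difference. The control libraries held 144, 121, 142 and 107 normalized counts, and the Pcx L-/- libraries held 749, 1381, 1365 and 1513. Every Pcx L-/- mouse lay above every control, and Pcx L-/- replicate 1 was the lowest of its group. Mean levels were 128 ± 17.6 (SD, n = 4) in control and 1252 ± 342 (SD, n = 4) in Pcx L-/- liver, a 9.67-fold difference (log2 fold change 3.27 ± 0.22, standard error). It ranked at position 23 from the top among the 13168 genes tested, where 99.8% had a lower log2 fold change. Without Pcx L-/- replicate 1 the log2 fold change was 3.45. Within the 500s series the ratio of means was 5.65 (1 Pcx L-/- mouse against 2 controls), and within the 800s series it was 11.4 (3 against 2).

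The gene next to Cyb5r1 on its right, Adipor1, an adiponectin receptor gene 3638 bases away on the same strand, was at 2313 ± 179 (SD, n = 4) normalized counts in control and 2027 ± 123 (SD, n = 4) in Pcx L-/- liver. Its log2 fold change of -0.19 was not past the threshold (adjusted p = 0.202, edgeR), and turned to 0.10 with scaling by library size. To the left, 4933406M09Rik lies 14578 bases away and had 7 reads in all 8 libraries. No gene of the annotation overlaps Cyb5r1, so its reads have no partner on the other strand to be shared with.

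The RefSeq promoter windows, cut to the 250 bases before the RefSeq start in GRCm38.p6, held an entry for 5 of the 6 members looked up, with none for Cyb5r3. This start can differ from the start of the GENCODE gene given here, and other starts were not searched. The windows of Cyb5r1 (chr1:134405531-134405780, plus strand) and Cyb5b (chr8:107150411-107150660, plus strand) are shown because these are the members with a window whose genotypes did not overlap, in opposite directions. They are written 5′ to 3′ with each CpG in capitals. A non-coding transcript of the GENCODE gene begins inside the Cyb5r1 window. The Por window (chr5:135688895-135689144, plus strand) lies inside the GENCODE gene, which begins at 135670033, so it describes an internal start only.
Cyb5r1: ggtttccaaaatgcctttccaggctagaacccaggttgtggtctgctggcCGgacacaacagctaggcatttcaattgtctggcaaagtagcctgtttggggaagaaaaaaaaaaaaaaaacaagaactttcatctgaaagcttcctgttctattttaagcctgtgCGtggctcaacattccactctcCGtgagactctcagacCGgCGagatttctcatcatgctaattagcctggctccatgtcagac
Cyb5b: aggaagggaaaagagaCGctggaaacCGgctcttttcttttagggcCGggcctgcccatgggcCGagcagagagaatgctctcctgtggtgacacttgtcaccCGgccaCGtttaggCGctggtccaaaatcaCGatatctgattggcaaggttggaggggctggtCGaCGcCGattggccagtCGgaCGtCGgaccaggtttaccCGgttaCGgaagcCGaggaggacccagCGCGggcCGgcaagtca
The Cyb5r1 window holds 5 CpG and 46.0% G and C, and 49.6% of all 32851 windows hold as few CpG or fewer. That of Cyb5b holds 20 CpG (83.7% of windows hold as few) and 60.4% G and C, and those of Por, Cyb5r4 and Cyb5r2 hold 21, 14 and 7. The median over all windows was 6 CpG. Both strands were searched for the C/EBP-ATF composite element TGATGNAAN, the cyclic AMP response element TGACGTCA and the antioxidant response element core TGACNNNGC, which 3.44%, 1.55% and 10.2% of all windows hold. The sole match among the 5 members was the last of these, TGACTCCGC, 48 bases before the RefSeq start of Cyb5r4. The letters of these motifs are not in the other 4 windows, from which nothing follows about the factors.

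Cyb5r3 (ENSMUSG00000018042, chromosome 15 from 83153494 to 83172592, minus strand) went the other way. Control mice had 4489.9, 4394, 4383 and 4589 normalized counts, and Pcx L-/- mice had 3101, 1899.8, 2278 and 2232.5. All 4 Pcx L-/- values lay under all control values, and Pcx L-/- replicate 1 was again the one nearest to control. The means were 4464 ± 96.1 (SD, n = 4) and 2378 ± 511 (SD, n = 4), a level 1.88-fold lower in Pcx L-/- liver (log2 fold change -0.91 ± 0.15, standard error). This control spread, a coefficient of variation of 2.15%, was the smallest among the 7 genes. With scaling by library size the log2 fold change was -0.64, and without Pcx L-/- replicate 1 it was -1.06. The ratio of the Pcx L-/- mean to the control mean was 0.698 in the 500s series and 0.476 in the 800s series. An antisense gene, Gm49463, overlaps Cyb5r3 on the opposite strand, and Rnu12 and 7530414M10Rik lie nearest on its sides. None of these is in the count table, so no reads can be set beside those of Cyb5r3.

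Cyb5r4 (ENSMUSG00000032872, chromosome 9 from 87022014 to 87077774, plus strand) differed little. Its normalized counts were 519.8, 534, 452.5 and 579 in control mice and 593, 543.5, 543 and 549.7 in Pcx L-/- mice. The genotypes overlapped, and Pcx L-/- replicate 1 was the highest library. The log2 fold change was 0.10 ± 0.10 (standard error), from means of 521 ± 52.3 (SD, n = 4) and 557 ± 23.8 (SD, n = 4), and 0.07 without Pcx L-/- replicate 1. On the deposited FPKM scale, which divides by gene length and the library's total, the Pcx L-/- values of 8.83 to 9.72 all lay above the control values of 6.40 to 7.73, so whether the genotypes overlap depends on the scaling for this gene.

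Cyb5r2 (ENSMUSG00000048065, chromosome 7 from 107748455 to 107758032, minus strand) was near the limit of detection. Control libraries held 2, 1, 3 and 1 reads and Pcx L-/- libraries 4, 11, 2 and 6, a total of 30 over the 8 libraries, and the genotypes overlapped. Ppfibp2, which encodes a liprin, overlaps it on the opposite strand with 3734 reads, and no source used here states whether the counting used strand, so reads of the pair cannot be told apart. No fold change is given for Cyb5r2 at this depth.

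Levels of different genes were set side by side as FPKM, per length. In control liver Cyb5a (445 ± 150 FPKM, SD, n = 4) and Por (439 ± 67.9 FPKM) stood at the top with overlapping ranges, and Cyb5a was the higher in 3 of 4 mice. Cyb5r3 (93.5 ± 3.72 FPKM), Cyb5b (47.6 ± 4.42 FPKM), Cyb5r4 (7.25 ± 0.58 FPKM), Cyb5r1 (2.85 ± 0.50 FPKM) and Cyb5r2 (0.038 ± 0.018 FPKM) followed, each separated from its neighbours without overlap. In Pcx L-/- liver the order changed at a single place. Cyb5r1, at 34.2 ± 11.1 FPKM, passed Cyb5r4, at 9.44 ± 0.42 FPKM, and took position 5 in place of 6. It stayed under Cyb5b (43.4 ± 4.66 FPKM) in each of the 4 mice, although the ranges of these overlapped. Cyb5a was at 629 ± 60.1, Por at 317 ± 109, Cyb5r3 at 60.01 ± 7.55 and Cyb5r2 at 0.117 ± 0.075 FPKM. Among all genes tested, the control FPKM of Cyb5r3 stood at percentile 95.4, that of Cyb5b at 91.4, that of Cyb5r4 at 62.4 and that of Cyb5r1 at 39.7.

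**Figure D1:**
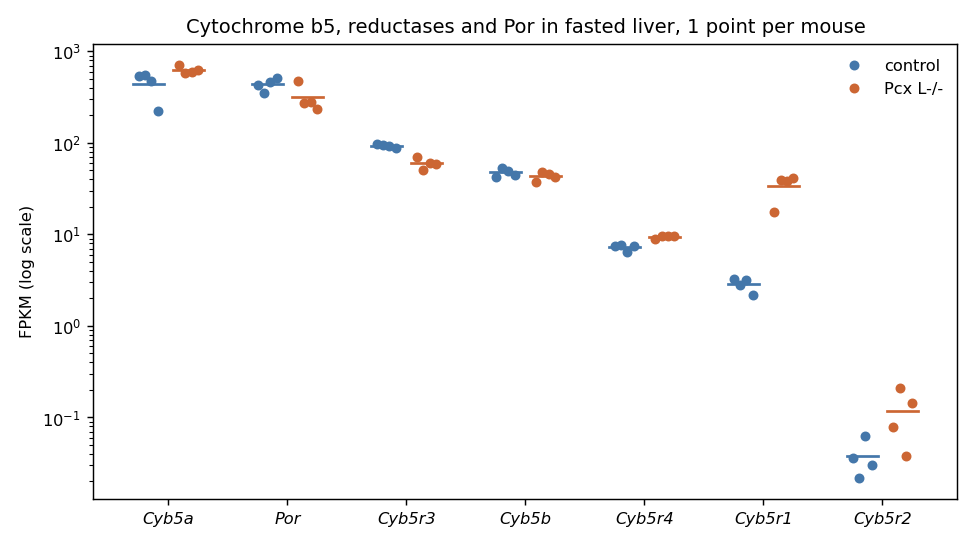
FPKM (log scale) of the 7 genes in each mouse, with controls in blue, Pcx L-/- in orange and a line at each group mean. The Pcx L-/- points of Cyb5r1 lie between 17.7 and 41.8, above the control points of 2.17 to 3.26 and above all points of Cyb5r4.

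The makeup of the reductase transcripts was compared within each mouse, which does not depend on the scaling between libraries. Cyb5r1 made up 3.03%, 2.62%, 3.09% and 2.21% of the summed FPKM of the 4 reductase genes in control mice, and 18.4%, 39.0%, 35.2% and 38.0% in Pcx L-/- mice. The groups did not overlap, and the share of Pcx L-/- replicate 1 was less than that of its group mates by a wide margin. The mean share was 2.74% ± 0.41 (SD, n = 4) in control and 32.7% ± 9.64 (SD, n = 4) in Pcx L-/- liver, or 37.4% without Pcx L-/- replicate 1. The share of Cyb5r3 was 90.2% ± 0.28 (SD, n = 4) in control and 58.1% ± 9.68 (SD, n = 4) in Pcx L-/- liver. There were 33.5 ± 5.35 FPKM of Cyb5r3 per FPKM of Cyb5r1 in control liver and 2.06 ± 1.26 in Pcx L-/- liver (both SD, n = 4), so Cyb5r3 remained the more abundant in each of the 8 mice.

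**Figure D2:**
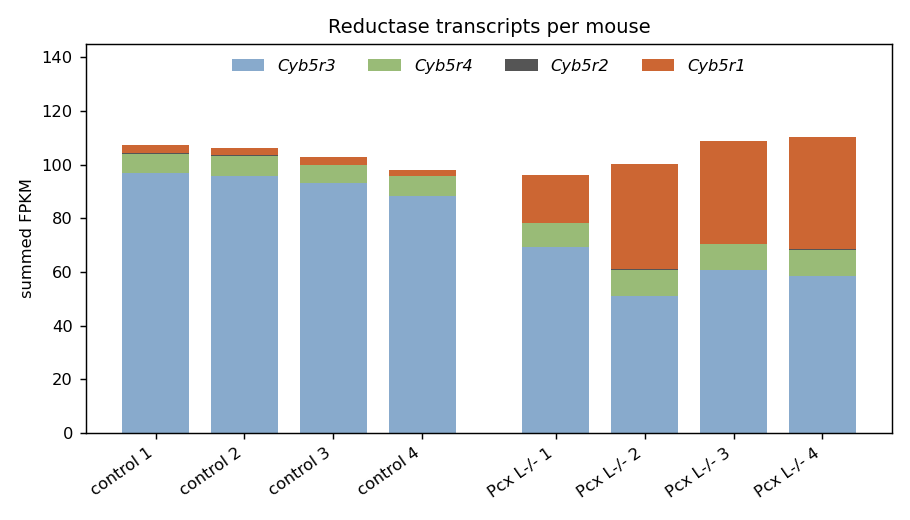
Stacked FPKM of the 4 cytochrome b5 reductase genes in each mouse, with the vertical axis from 0 and 1 bar per mouse. Cyb5r1 takes 2.21% to 3.09% of the bar in controls and 18.4% to 39.0% in Pcx L-/- mice, while the bar heights of both genotypes overlap.

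Summed over the 4 reductase genes, the FPKM were 104 ± 4.24 (SD, n = 4) in control and 104 ± 6.83 (SD, n = 4) in Pcx L-/- liver, with overlapping ranges. On the TMM scale, as CPM per kilobase, the sums were 114 ± 2.62 and 94.1 ± 5.73 (both SD, n = 4) and did not overlap, so the summed level depended on the scaling. Without Cyb5r1 the sum of the other 3 genes was 101 ± 3.85 FPKM in control and 69.6 ± 7.13 FPKM in Pcx L-/- liver (both SD, n = 4), with no overlap.

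Of the electron carriers themselves, Cyb5a (ENSMUSG00000024646, chromosome 18 from 84838704 to 84879871, plus strand) had 13294, 13449, 11856 and 6259 normalized counts in control mice and 17098, 11591, 11951 and 12665 in Pcx L-/- mice. On this scale the genotypes overlapped, with control replicate 4 the lowest and Pcx L-/- replicate 1 the highest library. The log2 fold change was 0.25 ± 0.23 (standard error), and it was 0.05 without control replicate 4 and 0.10 without Pcx L-/- replicate 1. With scaling by library size it was 0.50, and on the FPKM scale the Pcx L-/- values of 583 to 716 all lay above the control values of 225 to 547, so the overlap depended on the scaling. An antisense gene, Gm16146, overlaps Cyb5a but held 107 reads in all, against 103170 for Cyb5a.

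Cyb5b (ENSMUSG00000031924, chromosome 8 from 107150640 to 107187471, plus strand) had 3358, 4085, 3925 and 3953 normalized counts in control mice and 2790.2, 2978, 2919 and 2754.5 in Pcx L-/- mice. All Pcx L-/- values lay under all control values, and those of Pcx L-/- mice were close together, with a coefficient of variation of 3.7%. The means of 3830.3 ± 322 (SD, n = 4) and 2861 ± 106 (SD, n = 4) gave a log2 fold change of -0.42 ± 0.11 (standard error), which was -0.41 without Pcx L-/- replicate 1. The log2 fold change was -0.43 with DESeq2's size factors, whereas on the FPKM scale the control range of 42.9 to 52.8 and the Pcx L-/- range of 37.1 to 47.5 overlapped. Inside each mouse, Cyb5a exceeded Cyb5b by 9.34 ± 3.15 times in control and 14.7 ± 3.19 times in Pcx L-/- liver (both SD, n = 4) and the ranges overlapped. The sum of both carriers per summed reductase FPKM was 4.71 ± 1.32 in control and 6.52 ± 0.90 in Pcx L-/- liver (both SD, n = 4). The lowest Pcx L-/- value of this ratio, 5.90, lay just above the highest control value, 5.65.

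Por (ENSMUSG00000005514, chromosome 5 from 135670033 to 135735326, plus strand) was the member whose log2 fold change moved most when a single mouse was left out. Normalized counts were 20485, 16807, 22367 and 27738 in control mice and 22077, 10403, 10916.5 and 9302 in Pcx L-/- mice. Pcx L-/- replicates 2 to 4 lay under every control, while replicate 1 lay inside the control range. The means were 21849 ± 4554 (SD, n = 4) and 13175 ± 5973 (SD, n = 4), and the log2 fold change of -0.73 ± 0.27 (standard error) was not past the threshold. Without Pcx L-/- replicate 1 it was -1.10. Por was past the threshold in 6 of the 19 alternatives, among them the fit without that mouse, the 800s mice alone, DESeq2 with or without shrinkage, and no filter. The ratio of the Pcx L-/- mean to the control mean was 1.18 in the 500s series (1 mouse against 2) and 0.407 in the 800s series (3 against 2), so the direction differed between the series. A processed pseudogene, Gm16061, overlaps Por on the opposite strand with 237 reads in all, and Por itself had 135605. Gm43091, a long non-coding RNA gene, also overlaps Por on that strand but is not in the count table.

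**Figure D3:**
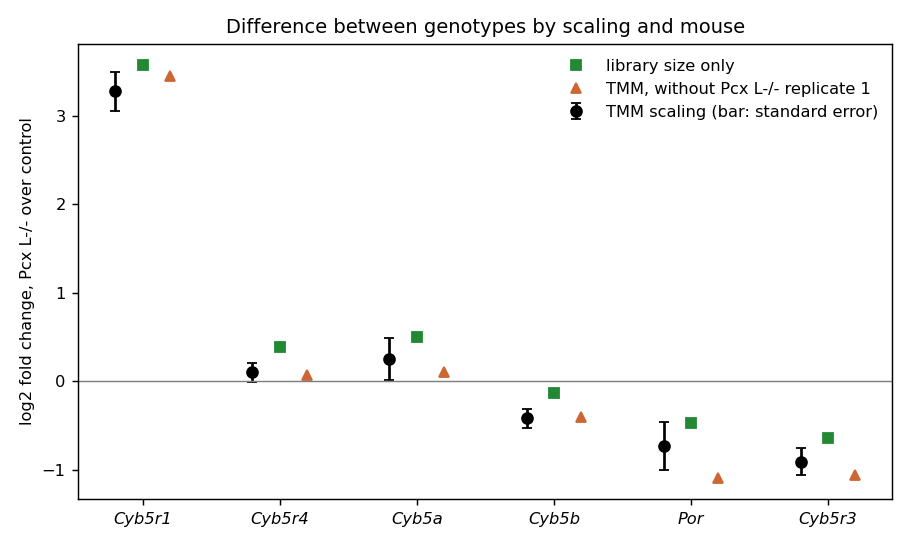
Log2 fold change of Pcx L-/- over control for the 6 genes tested, with TMM scaling (black points, bars of 1 standard error), with library size only (green squares) and without Pcx L-/- replicate 1 (orange triangles). Signs stayed as they were in all 6 genes, Por moved to -1.10 without that mouse, and Cyb5b moved to -0.13 with library size only.

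The acceptors of electrons from Por were compared as a list of microsomal P450s with squalene epoxidase and the heme oxygenases, of which 65 of 77 genes in the table were tested. Of these, 30 were lower and 6 higher in Pcx L-/- liver, or 55.4% called against 27.6% of all genes tested, with a median log2 fold change of -0.61 against -0.01 (27 lower and 7 higher with library size only). This and the other partner lists were drawn up with earlier results of these data known. Their counts are therefore descriptions, and nothing is read from an excess over the share of all genes. Cyp2e1, which oxidizes ethanol and was the most abundant of the list, averaged 179007 ± 21433 normalized counts in control and 90497 ± 39141 in Pcx L-/- liver (both SD, n = 4), and so was lower there (log2 fold change -0.98, adjusted p = 0.0188, edgeR). The genes that fell most were Cyp2c69 (log2 fold change -5.24, adjusted p = 0.00109, edgeR) and Cyp2c40 (-4.23, adjusted p = 0.00288, edgeR), of a subfamily whose similar sequences can share reads. The genes that rose most were Cyp2c55 (1.82, adjusted p = 0.0402, edgeR) and Cyp2b10 (1.78, adjusted p = 0.0195, edgeR), the latter known as a target of the receptor CAR. Cyp2c55 had only 118 reads in all libraries together, and its log2 fold change ran from 0.55 to 4.69 over the alternatives. Cyp2b10 overlapped between the genotypes, with control replicate 4 at 852 and Pcx L-/- replicate 1 at 717 normalized counts. Cyp2c55 lost its call in 8 of the 19 alternatives and Cyp2b10 and Cyp2e1 in 4 each. Cyp3a16, Cyp3a41a and Cyp3a41b had no read in any library.

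Summed FPKM of the 74 P450 genes on the list were 19195, 18868, 19406 and 17608 in control mice and 15562, 12767, 11856 and 12202 in Pcx L-/- mice. The genotypes did not overlap, and Pcx L-/- replicate 1 was the highest of its group, as it was for Por. The mean log2 ratio was -0.53, and it was -0.48 without the 13 Cyp2c genes. It is given with no test, since the list was drawn up with earlier results of these data known. On the TMM scale the log2 ratio was -0.81, and without Pcx L-/- replicate 1 it was -0.61 on the FPKM scale. The number of P450 FPKM per Por FPKM was 43.7 ± 7.94 (SD, n = 4) in control and 43.4 ± 8.21 (SD, n = 4) in Pcx L-/- liver. Its ranges, 34.1 to 53.4 and 32.6 to 51.7, overlapped almost wholly, with Pcx L-/- replicate 1 the lowest of the 8 mice.

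**Figure D4:**
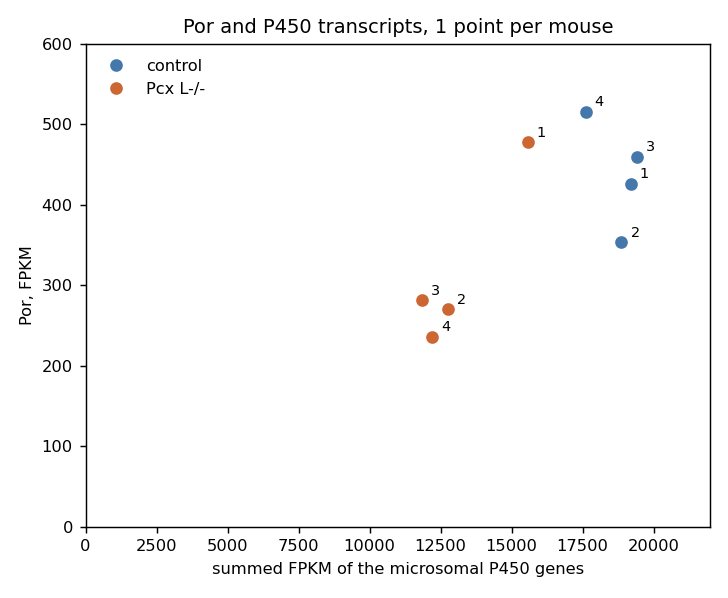
Por FPKM against the summed FPKM of the microsomal P450 genes, 1 point per mouse with its replicate number, controls in blue and Pcx L-/- in orange, both axes from 0. Pcx L-/- replicates 2 to 4 sit at 236 to 282 Por FPKM and at 11856 to 12767 P450 FPKM, and replicate 1 sits at 478 and 15562, near the controls.

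Enzymes grouped by their use of cytochrome b5, or of a cytochrome b5 domain, formed a list of 14 desaturases and hydroxylases, of which 11 were tested. In Pcx L-/- liver 2 of the 11 (18.2%, against 27.6% of all genes) were lower and none higher, with a median log2 fold change of -0.31, whereas library size only gave 1 lower and 1 higher. Cmah, the hydroxylase that makes N-glycolylneuraminic acid, was at 2090.2 ± 517 normalized counts in control and 610 ± 159 in Pcx L-/- liver (both SD, n = 4, log2 fold change -1.78, adjusted p = 0.000551, edgeR). Scd1, the stearoyl-CoA desaturase, fell by 0.57 on the log2 scale (adjusted p = 0.0412, edgeR), a call lost in 12 of the 19 alternatives. Fads2, the delta-6 desaturase, had a log2 fold change of -0.57 that did not pass (adjusted p = 0.0874, edgeR), with Pcx L-/- replicate 1 in the range of the controls. The other 8 genes, Scd2, Fads1, Fads3, Degs1, Degs2, Sc5d, Msmo1 and Tmem189, did not pass either.

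Genes for other cytochrome b5-domain proteins, Cyb5rl and the amidoxime reductases numbered 9, all tested. Of these, 2 were higher and 2 lower (44.4% called, against 27.6% of all genes tested), with a median log2 fold change of -0.23. Nenf, which encodes the secreted protein neudesin, rose from 123 ± 4.32 to 257 ± 40.7 normalized counts (both SD, n = 4, log2 fold change 1.07, adjusted p = 0.000853, edgeR), and Cyb5d1 rose by 0.47 (adjusted p = 0.0085, edgeR). Marc1, a mitochondrial amidoxime reductase that takes its electrons through Cyb5b and Cyb5r3, had a log2 fold change of -0.66 (adjusted p = 0.0209, edgeR). Pgrmc1, a heme-binding partner of P450s and the most abundant of these, had one of -0.53 (adjusted p = 0.0193, edgeR). The call of Pgrmc1 was lost in 7 of the 19 alternatives and that of Marc1 in 4. Without Pcx L-/- replicate 1, 8 of the 9 genes were called, 3 higher and 5 lower.

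Of the 5 diflavin relatives of Por, 3 were tested and 1 was higher (median log2 fold change 0.42, 33.3% called against 27.6% of all genes tested). Mtrr, methionine synthase reductase, rose by 0.72 on the log2 scale (adjusted p = 0.00806, edgeR). Ndor1, which serves cytosolic iron-sulfur assembly, had a log2 fold change of 0.42 that did not pass (adjusted p = 0.0766, edgeR). In the separate mitochondrial P450 chain, 4 of 9 genes were tested (median log2 fold change -0.24). Of the 4, 1 was higher and 1 lower (2 called, against 27.6% of all genes tested). There, Cyp27a1, the sterol 27-hydroxylase of bile acid synthesis, fell by 1.10 (adjusted p = 0.00136, edgeR) and Fdx1l, a ferredoxin of iron-sulfur assembly, rose by 0.61 (adjusted p = 0.0102, edgeR), while Fdxr, the ferredoxin reductase, was at 0.03 (adjusted p = 0.889, edgeR).

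Genes of phospholipid peroxidation and its defence, the process with which Cyb5r1 and Por have been linked, moved both ways. Of 19 genes 16 were tested, 4 higher and 4 lower (8 of 16 called, against 27.6% of all genes tested). The median log2 fold change was -0.24, and library size only gave 5 higher and 1 lower. Acsl4, which activates arachidonic acid, rose from 1074 ± 303 to 3708 ± 971 normalized counts (both SD, n = 4, log2 fold change 1.79, adjusted p = 0.00082, edgeR). Slc3a2, the heavy chain of the cystine and other amino acid transporters, rose by 1.36 (adjusted p = 0.000122, edgeR). Slc7a11 of the same list, its partner for cystine, had 21 reads in all libraries together and was not tested. Lpcat3, which inserts polyunsaturated acyl chains into phospholipids, and Gpx4, which reduces phospholipid hydroperoxides, were the other genes that rose. Gch1, the first enzyme of tetrahydrobiopterin synthesis, fell by 0.78 on the log2 scale (adjusted p = 0.00586, edgeR). Gclm, the modifier subunit of glutamate-cysteine ligase, had a log2 fold change of -0.57 (adjusted p = 0.00482, edgeR), a call lost in 4 of the 19 alternatives, and Gclc and Ncoa4 were also lower. Ftl1, the ferritin light chain and the most abundant of the list, had a log2 fold change of -0.23 (adjusted p = 0.32, edgeR) that turned to 0.05 with library size only.

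NADPH, the electron source of Por, is made by enzymes of which 5 genes were listed and tested. In Pcx L-/- liver 3 of 5 were called, 2 higher and 1 lower, against 27.6% of all genes tested (median log2 fold change 0.01). Pgd of the pentose phosphate pathway rose by 0.92 on the log2 scale (adjusted p = 0.00437, edgeR) and Me1, malic enzyme, by 0.73 (adjusted p = 0.0113, edgeR). Idh1, cytosolic isocitrate dehydrogenase and the most abundant of the 5, fell by 0.65 (adjusted p = 0.00618, edgeR). G6pdx (0.01) and H6pd (-0.43), whose enzyme makes NADPH inside the endoplasmic reticulum, did not pass.

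**Figure D5:**
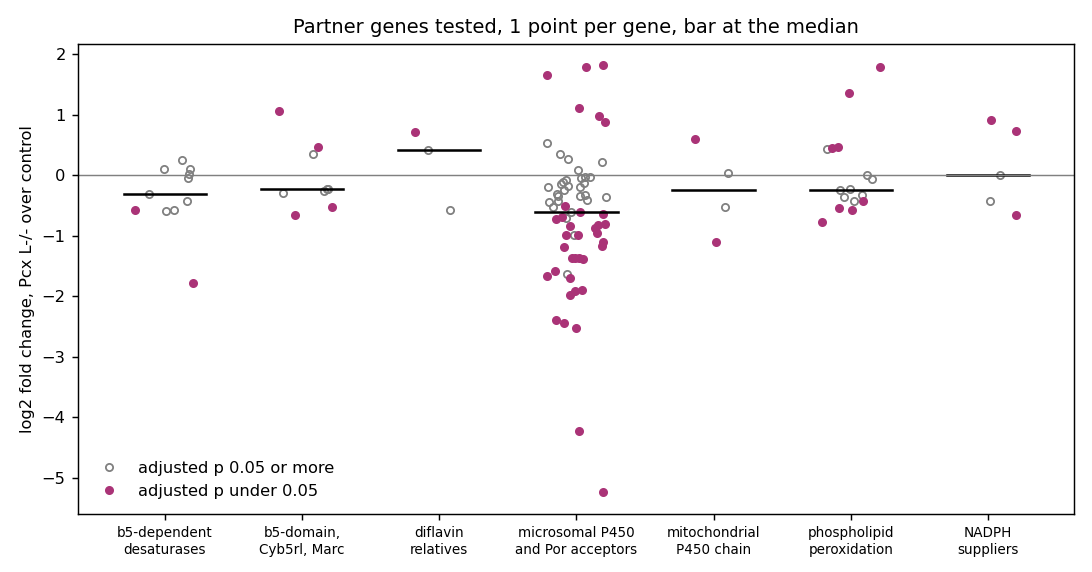
Log2 fold change of Pcx L-/- over control for each tested gene of the 7 partner lists, filled where the adjusted p was under 0.05 (edgeR), with a black bar at each list's median. The microsomal P450 list has the lowest median, -0.61, and the diflavin list of 3 genes the highest, 0.42.

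Genes whose levels over the 8 libraries were most like those of Cyb5r1 were found by the root mean square difference of log2 CPM, each relative to its control mean. In order they were Cidec (0.33), a lipid droplet protein, Cox6a2 (0.39), a subunit of cytochrome c oxidase known from muscle, Fam129a (0.40), Pmm1 (0.44), a phosphomannomutase, and Fibin (0.45). Cidec went from 277 ± 59.2 to 3018 ± 721 normalized counts (both SD, n = 4), and like Cyb5r1 it was lowest, at 2077, in replicate 1 among the Pcx L-/- mice. Fam129a at 396, Pmm1 at 197, Cox6a2 at 17.0 and Fibin at 77.4 were also lowest in that mouse. Cox6a2 had a single read over the 4 controls, so no fold is given for it. For Cyb5r3, the member with the next largest difference, the same measure gave, with 1 of the 5 genes not reported here, AI182371 (0.056), Lipc (0.068), hepatic lipase, Proc (0.085), the anticoagulant protein C, and Tmprss6 (0.086), a protease that restrains hepcidin. Like Cyb5r3, each of these 4 genes was highest in replicate 1 among the Pcx L-/- mice. The measure includes this mouse, so its shared place in both sets of genes follows largely from how they were chosen.

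Markers of other cells were read beside these values, and calls among them stand against 27.6% of all genes tested. Red blood cell markers, which bear on Cyb5r3 and Cyb5a because red blood cells also contain them, summed to between 295 and 1009 normalized CPM in control and between 383 and 4135 in Pcx L-/- liver, and none of the 7 tested was called by edgeR, none by DESeq2 and none at an unadjusted p under 0.05 (median log2 fold change 0.998). The highest sum was that of Pcx L-/- replicate 1, and the other 3 Pcx L-/- mice had 383 to 952. That mouse was also the highest Pcx L-/- library for Cyb5a, Cyb5r3, Cyb5r4 and Por. In control replicates 1 to 4 the sums were 295, 1009, 521 and 662. Normalized counts of Cyb5a there were 13294, 13449, 11856 and 6259, and those of Cyb5r3 all lay between 4383 and 4589. Macrophage markers summed to 251 to 371 and 295 to 383, with 1 of 8 called, Cd68, which was higher. Endothelial markers summed to 372 to 493 and 337 to 403, and stellate cell markers to 244 to 383 and 168 to 333, with none of 8 called in either list by edgeR or DESeq2, and 2 endothelial and no stellate cell genes at an unadjusted p under 0.05. Cholangiocyte markers summed to 20.2 to 36.0 and 18.3 to 23.0, with 1 of 5 called, Sox9, which was lower. Every marker had reads in at least 1 library, although Cftr had none in Pcx L-/- replicates 2 to 4 and Slc4a1 none in Pcx L-/- replicate 3. The part of these cells, and of the lower hepatocyte markers, in the differences of the 7 genes was not tested.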

How the data were processed

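Liver RNA of 8 mice was purified with TRIzol and a column kit and sequenced by a company. The submitters' processing notes name STAR 2.5, HTSeq 0.6.1 and DESeq2, with the mm10 (GRCm38) genome. No source used here states the annotation release or the use of strand. The authors deposited raw read counts per Ensembl gene and FPKM values. The 142384 deposited FPKM values that are not 0 match, within a relative tolerance of 1e-06, the count over 1 length per gene and the library total. Every row names a gene, and no column belongs to another sample.

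The 7 genes, the 7 partner lists and the 6 marker lists were chosen with earlier results of these data known. Symbols were matched through GENCODE M21 (34490 of 35275 identifiers), and 2 listed P450 symbols, Cyp2c44 and Cyp2d13, found no match. Counts were tested with edgeR 4.0.16 (R 4.3.3), using TMM scaling, filterByExpr (minimum count 10, minimum total 15), the quasi-likelihood test on genotype alone and Benjamini-Hochberg adjustment across 13168 genes. Standard errors are approximate, from the F statistic. An exact permutation test of the P450 sum was run but is not quoted, because its list was chosen with results known. Each library is a separate mouse, and pairs of the same genotype differed by more than counting noise (Spearman 0.976 to 0.993 across genes). With 12016242 reads in the shallowest library, a gene such as Cyb5r2 cannot be compared.

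Named genes were the 7 members, Pcx, and the 2 highest and 2 lowest called genes and the most abundant gene of each partner list. Also named were the 5 genes most like Cyb5r1 and Cyb5r3 (log2 CPM, prior count 2), genes next to Cyb5r1 or Cyb5r3, and genes overlapping a member. Of those most like Cyb5r3, 1 is not reported here. Others (Lpcat3, Gpx4, Gclc, Ncoa4, Slc7a11, Fdxr, G6pdx, H6pd, Alb, Cd68, Sox9, Cftr, Slc4a1 and the desaturases that did not pass) complete short counts and were added after their values were seen. Alternatives were DESeq2 1.42.0 with and without apeglm 1.24.0, its size factors, library size only, no filter, limma 3.58.1 on log2(FPKM + 1) and log2(FPKM + 0.1), a block on replicate number, the series of mouse numbers, and each mouse left out. The fitting steps were tested on simulated data. Promoter windows are from RefSeq. Protein sequences were not used here.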

Additional observations from a re-analysis of the deposited data

Results flagged for a closer look

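In 17 of 91 groups of 4 mice (members, named genes and neighbours), 1 mouse lay farther from the other 3 than a test for a single distant value allows, where chance gives about 1 in 20. Members account for 2 of the 17, both in Pcx L-/- replicate 1. Its normalized count of Por was 22077 against 9302 to 10916.5 in the other Pcx L-/- mice, and that of Cyb5r4 was 593 against 543 to 549.7.

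The same mouse was the highest Pcx L-/- library for Cyp2e1 (149080.0), Pgrmc1 (14759), Fads2 (7439), Idh1 (3652), Gch1 (2729.8), Adipor1 (2211), Cmah (846) and Cyp2c40 (46.2), and the lowest for Cyp2b10 (717). Control replicate 4, the library with the fewest reads, was the highest control for Ftl1 (65106.5), Acsl4 (1527) and Cyp2c69 (207), and the lowest for Cyb5d1 (277) and Fdx1l (187). Control replicate 3, with its single read, was the highest control for Cox6a2 (1.07), where the other controls were at 0 and any read would be flagged.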

How the results depend on the processing

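Cyb5r1 had a log2 fold change of 3.12 to 3.58 over all 19 alternatives and 3.17 to 3.45 with each mouse left out. With library size only, limma on log2(FPKM + 0.1) and limma on log2(FPKM + 1) with or without a filter, Cyb5r3 was at -0.64, -0.65, -0.64 and -0.64, Cyb5r4 at 0.38, 0.38, 0.34 and 0.34, and Cyb5b at -0.13, -0.13, -0.13 and -0.13. None of these 4 settings uses TMM factors. In them Cyb5r4 was past the threshold in place of Cyb5b, so the number of members past it stayed at 3. With the 800s mice alone Por was at -1.29. The calls of desaturases were 4 with the 800s mice and 1 with the series as a covariate. Of the diflavin genes 2 were called with library size only, limma on either pseudocount with the filter, and the 800s mice. Peroxidation genes called were 5 by limma without a filter.

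With each mouse left out, the genes altered between genotypes numbered 2109 (without Pcx L-/- replicate 4) to 4602 (without Pcx L-/- replicate 1), and the other ranges were 2 (without Pcx L-/- replicate 4, when Cyb5b was not) to 4 (without Pcx L-/- replicate 1, with Por) members past the threshold, -1.06 to -0.81 for Cyb5r3, 0.03 to 0.15 for Cyb5r4, 0.05 to 0.35 for Cyb5a, -0.48 to -0.39 for Cyb5b and -1.10 to -0.59 for Por. Called genes were 1 to 5 for desaturases, 2 to 8 for cytochrome b5-domain proteins, 1 to 2 for diflavin genes, 24 to 40 for P450s, 2 to 3 for the mitochondrial chain, 5 to 11 for peroxidation and 3 to 4 for NADPH suppliers. Each of these counts was highest without Pcx L-/- replicate 1, with control replicate 4 equal for the mitochondrial chain. The count of 1 desaturase came without any of Pcx L-/- replicates 2 to 4 or control replicates 2 to 4, that of 2 cytochrome b5-domain genes and of 26, 24 and 24 P450s without Pcx L-/- replicates 2, 3 and 4, and that of 5 peroxidation genes without Pcx L-/- replicate 4 or control replicate 3. The share of Cyb5r1 was 30.5% to 37.4%, and the log2 ratio of P450 sums -0.61 to -0.48. Without Pcx L-/- replicate 2, 2295 genes were altered.

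Signs turned with library size only, limma with pseudocounts 0.1 and 1, and limma without a filter for Adipor1 (0.0953, 0.0949, 0.0926 and 0.0926), Ftl1 (0.0473, 0.0433, 0.0433 and 0.0433) and Ppfibp2 (0.0999, 0.0962, 0.0858 and 0.0858), none past the threshold. That of Gm16061 turned without Pcx L-/- replicates 1 (-0.0672) and 3 (-0.0134) and control replicates 1 (-0.0527) and 4 (-0.0420), in a range of -0.0672 to 0.7162 with each mouse left out. Higher genes made up 51.1% of the genes altered between genotypes, and 81.8% with library size only. Over named genes and alternatives, 649 results kept their side of the threshold, 43 lost it, 14 gained it and 16 changed sign. The cause of these shifts was not tested.

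Replicate numbers did not pair the mice (correlations of same-numbered deviations 0.10, -0.13, -0.10 and -0.07). With a replicate block 2975 was the number of genes altered between genotypes, 4 members were past the threshold, with Por, and 1 desaturase was called. Depth limits Cyb5r2, with at most 11 reads in a library.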
